A study of Sus scrofa with 9 samples.

Results

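The respiratory chain of the mitochondrial inner membrane is represented here by 28 genes of the pig, out of 3052 genes that could be named on the array. They were taken by symbol: genes beginning with NDUF, UQCR, COX4 to COX8 or ATP5, the genes SDHA to SDHD, CYC1 and CYCS. No measured value entered that rule, although it was set with earlier results of these data known. The 28 genes were carried by 111 probes, and each gene is given by its probe with the highest mean signal. Of these genes, 26 had a testable probe, and 25 were well above background on all 9 arrays.

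The study measured transcripts in T cells sorted from the blood of sows with arrays of a single colour. Mononuclear cells from whole blood were separated on Percoll, and a cell sorter then gave 3 fractions. Cells carrying CD3, CD4 and CD8 (CD3+CD4+CD8+) are called DP below, those of the CD3+CD4+ sort the CD4 fraction and those of the CD3+CD8+ sort the CD8 fraction. Each fraction had 3 arrays (n = 3), described in the labels as biological replicates, and the design sets DP against each of the other fractions. No treatment, genotype or time point separates the arrays. The labels name each gate only by the markers its cells carry, so whether the CD4 gate left out cells with CD8, and the reverse, is unknown here. The antibodies, the purity, the number of sows and their age are also not given in the sources used here. Where the 3 arrays of a fraction do not come from separate animals, p-values measure only the spread between these samples. In sorted populations, fewer cells of a type and less RNA per cell cannot be told apart.

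The chain moves electrons from NADH through complex I, and from succinate through complex II, to ubiquinone, then through complex III, cytochrome c and complex IV to oxygen. The protons pumped along the way drive complex V, the ATP synthase. Resting T cells make most of their ATP in this way, activated effector cells add glycolysis, and memory T cells are known for a large respiratory reserve. Complex II is encoded wholly in the nucleus, whereas the other complexes join nuclear subunits to subunits encoded in mitochondrial DNA.

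Levels are log2 of the processed signal relative to the 75th percentile of the same array, so a level of 0 lies at that percentile and a difference of 1 is a doubling. Probes differ in how strongly they bind, so levels are compared between arrays and never between genes. The 75th percentile lay between 15.2 and 84.1 signal units, and an array had 32.6% to 53.7% of its probes well above background. The sorting markers followed the labels in these comparisons: CD4 exceeded its CD8 fraction level by 4.17 in DP (limma adjusted p = 0.021), and CD8A exceeded its CD4 fraction level by 3.20 in DP (limma adjusted p = 0.018). CD8A was also above background on all 3 CD4 arrays, and CD4 on 1 CD8 array. The DP minus CD8 difference of CD8A was -1.88 (limma adjusted p = 0.218). Of 9 T cell markers 6 were named, and 5 of these were above background on every array. Among B cell markers, CD79A was above background on all 9 arrays, MS4A1 on 5 and BLNK on none. CD79A, a signalling chain of the B cell receptor, read 0.48, -1.50 and 0.86 in DP, -0.10, -0.04 and 0.64 in CD4 and 3.50, 2.39 and 3.56 in CD8. All CD8 arrays of CD79A lay above all others, and the DP level was lower than the CD8 level by a difference of -3.20 (limma adjusted p = 0.045). Of 5 natural killer markers 4 were named: FCGR3A was above background on 9 arrays, KLRK1 on 7, KLRB1 on 1 and NCR1 on none. The log2 of their summed linear levels was 5.34 to 6.68 in DP, 2.18 to 3.62 in the CD4 fraction and 4.68 to 6.14 in the CD8 fraction. Monocyte, platelet and dividing cell markers were named for 6, 5 and 5 genes, and no erythroid marker was named.

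None of the 26 tested respiratory chain genes differed between fractions at a limma adjusted p under 0.05, and neither did any of their 103 tested probes. The count was 0 for DP against CD4, where 0.293% of the 16024 tested probes were called, and 0 for DP against CD8, where 0.312% were. It was also 0 for CD4 against CD8, at a background of 0.437%, and 0 in limma's F test over the 3 fractions together, at a background of 0.612%. At an unadjusted p under 0.05, 1 gene passed in DP against CD8 (COX6C, a nuclear-encoded subunit of complex IV), against 6.52% of all tested probes. That count was 0 in 14 of the 24 alternatives and 1 in 8. It was 2 with the replicate block, where 1555 of all 16024 probes passed against 1045 in the main fit. It was 3 without CD8 array 3, where 1534 of all probes passed. No gene passed at that level in DP against CD4, in CD4 against CD8 or in the F test, where 4.84%, 4.54% and 6.18% of all probes did. Without CD8 array 3, 2 genes passed in CD4 against CD8, where 1409 of all 16024 probes did against 727 in the main fit.

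The typical difference was small and known only to within about a doubling. The median standard error of a gene's difference was 0.42. The 95% interval lay wholly between -1 and 1 for 7 genes in DP against CD4, for 4 in DP against CD8 and for 5 in CD4 against CD8. For the other genes a difference of 1 log2 unit, up or down, lay inside the interval. The median SD of these genes over the arrays of a fraction was 0.48, against 0.62 over all tested probes.

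DP and the CD4 fraction stood at the same median: the 26 differences had a median of -0.02, with 13 genes higher in DP and 13 lower, and a range of -0.49 to 0.62. All tested probes gave -0.02 as well. Against the CD8 fraction the DP median was -0.30, with 5 genes higher and 21 lower and a range of -1.10 to 0.25, while all tested probes had a median of -0.03. The CD4 fraction lay below CD8 by a like amount, with a median of -0.31, 3 genes higher and 23 lower, against -0.01 over all probes. COX7A1, at the low end of both ranges, entered the tests only through its CD8 arrays. Over the 25 genes above background on all 9 arrays the medians were 0.02 for DP against CD4, -0.28 for DP against CD8 (5 higher, 20 lower) and -0.29 for CD4 against CD8 (3 higher, 22 lower). The comparisons against CD8 share the CD8 arrays and are therefore not separate evidence of a high level in CD8. The B cell marker CD79A was likewise highest on the CD8 arrays, and its part in the difference was not tested.

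The medians against CD8 depended on single arrays and on the background correction. Without DP array 3 the DP median against CD8 was -0.09, and without CD8 array 2 it was -0.14. Without CD8 array 2 the CD4 median against CD8 was -0.10, and without CD4 array 3 it was -0.12. With normexp background correction in place of the processed signal, the medians were 0.03 for DP against CD8 and -0.04 for CD4 against CD8. Slides 2 and 3 held more than 1 fraction, but DP had a single array on each, and DP array 1, alone on slide 1, enters no value within a slide. Slide 2 held 1 CD4 and 2 CD8 arrays, and slide 3 held 2 CD4 arrays and 1 CD8 array. Within slide 2 the median of DP against CD8 was -0.45 and within slide 3 it was -0.23, and those of CD4 against CD8 were -0.34 and 0.09, so the latter changed sign on slide 3. For DP against CD4 the medians were -0.03 on slide 2 and -0.41 on slide 3.

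**Figure D1:**
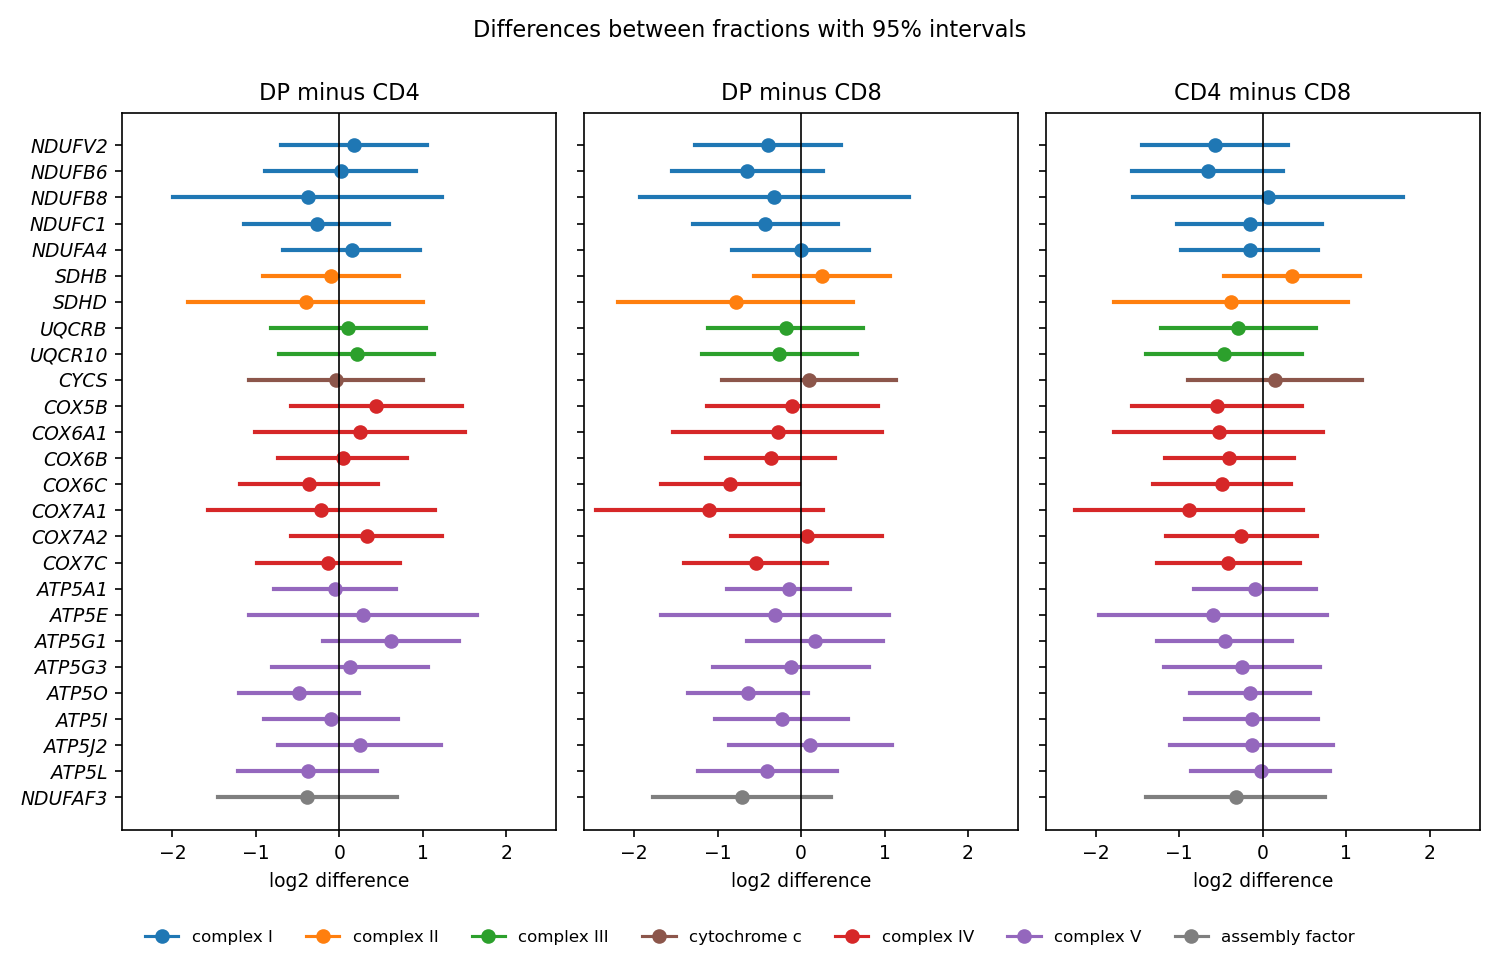
Log2 difference of each tested respiratory chain gene, with DP minus CD4 on the left, DP minus CD8 in the middle and CD4 minus CD8 on the right, and horizontal bars for the 95% interval of the fit over 9 arrays; colours mark the complexes. Points lie mostly left of 0 in the panels that involve CD8 (21 and 23 of 26), and the interval of COX6C in DP minus CD8 is the one that leaves out 0.

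Complex I takes electrons from NADH. NDUFV2, a core subunit with an iron-sulfur cluster, read 2.10, 2.19 and 1.55 on DP arrays 1, 2 and 3, with 1.94, 1.71 and 1.68 in CD4 and 2.51, 2.79 and 1.73 in CD8, in the same order. The fractions overlapped, and the difference of DP minus CD8 was -0.40 ± 0.40 (SE). The sign rested on the probe, since of 4 tested probes of NDUFV2 the other 3 were higher in DP than in CD8, up to 0.70.

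NDUFB6, an accessory subunit of the membrane arm of complex I, read 1.58, 1.08 and 0.71 in DP, 1.59, 1.14 and 0.59 in CD4 and 1.98, 1.68 and 1.64 in CD8. All 3 CD8 arrays lay above all DP and all CD4 arrays, although the lowest CD8 array and the highest of the others were less than 0.1 apart. The difference was -0.64 ± 0.42 (SE) for DP minus CD8, with a limma adjusted p of 0.949, and -0.66 ± 0.42 (SE) for CD4 minus CD8. On the other tested probe of NDUFB6 the arrays overlapped in both comparisons, with differences of -0.28 for DP minus CD8 and -0.63 for CD4 minus CD8. By chosen probes, NDUFB6 was the only tested member whose CD4 arrays all lay below its CD8 arrays, at a background of 4.24%. No member's CD4 arrays all lay above, at a background of 3.78%.

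Other accessory subunits of complex I varied mainly within fractions. NDUFC1 read 1.54, 1.29 and 0.73 in DP, 1.52, 1.46 and 1.41 in CD4 and 1.99, 1.71 and 1.15 in CD8, which overlapped, and its tested probes disagreed in sign for DP minus CD8. NDUFB8 read 0.74, 2.21 and -1.16 in DP, 2.11, 0.85 and -0.03 in CD4 and 0.86, 1.15 and 0.74 in CD8. DP array 3 was far below the other DP arrays there, and NDUFB8 had the widest range over the 9 arrays of any tested member, 3.37. NDUFA4, a subunit named for complex I and since assigned to complex IV, read 5.16, 5.03 and 4.40 in DP, 4.85, 4.84 and 4.46 in CD4 and 4.83, 5.45 and 4.33 in CD8. Its fraction means were 4.86 ± 0.41, 4.72 ± 0.22 and 4.87 ± 0.56 (SD), and all fractions overlapped. All 5 tested genes grouped here with complex I had a negative DP minus CD8 difference on their chosen probes, from -0.64 to -0.01. Of the 6 tested probes of NDUFA4, 1 was higher in DP than in CD8. NDUFA4L2, a paralogue of NDUFA4 known to be induced by hypoxia, was above background on 1 CD4 array and was not tested.

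Complex II is succinate dehydrogenase, which also works in the citric acid cycle. SDHB, its iron-sulfur subunit, read 3.41, 3.05 and 3.32 in DP, 3.97, 2.95 and 3.17 in CD4 and 2.78, 3.25 and 3.00 in CD8. SDHD, a membrane anchor of the same enzyme, read 1.11, 1.99 and -0.24 in DP, 1.85, 1.67 and 0.54 in CD4 and 1.05, 2.94 and 1.22 in CD8. All fractions overlapped for both genes. The DP minus CD8 difference was 0.25 ± 0.38 (SE) for SDHB and -0.78 ± 0.65 (SE) for SDHD, and whether the 2 genes differ from each other in this was not tested. All 5 tested probes of SDHD were lower in DP than in CD8, from -0.84 to -0.21, whereas 4 of 7 probes of SDHB were higher.

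Complex III hands electrons to cytochrome c. UQCRB, its ubiquinone-binding protein, read 5.76, 4.92 and 4.74 in DP, 5.41, 5.03 and 4.66 in CD4 and 5.78, 5.68 and 4.51 in CD8. Array 3 was the lowest in each fraction, and the fraction means of 5.14 ± 0.54, 5.03 ± 0.37 and 5.32 ± 0.70 (SD) lay closer together than the arrays of any fraction. UQCR10, a small accessory subunit, read 1.78, 0.64 and 0.98 in DP, 1.15, 0.75 and 0.88 in CD4 and 1.69, 1.53 and 0.95 in CD8, again with overlap between all fractions. CYCS, the soluble carrier that also triggers the caspase cascade when released into the cytosol, read 3.74, 3.55 and 2.70 in DP, 4.06, 3.56 and 2.51 in CD4 and 3.71, 3.40 and 2.59 in CD8. Its fraction means of 3.33 ± 0.56, 3.38 ± 0.79 and 3.23 ± 0.58 (SD) were nearly level, and of its 11 tested probes 9 were higher and 2 lower in DP than in CD8, from -0.12 to 0.46.

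Complex IV reduces oxygen. COX6C read 7.11, 7.28 and 6.85 in DP, 7.59, 7.59 and 7.17 in CD4 and 7.87, 8.71 and 7.22 in CD8. DP held the lowest mean, but the highest DP array stood just above the lowest array of each other fraction, so the fractions overlapped. DP minus CD8 was -0.86 ± 0.38 (SE), with a 95% interval of -1.68 to -0.03, an unadjusted p of 0.0433 and a limma adjusted p of 0.743. All 3 tested probes of COX6C gave similar differences, from -0.93 to -0.82. The size turned on the CD8 arrays: the difference was -0.47 without CD8 array 2 and -1.21 without CD8 array 3. With a single DP array per slide, it was -1.01 within slide 2 and -0.37 within slide 3.

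COX7A1, the isoform of subunit 7A found in heart and skeletal muscle, read -0.46, -0.82 and -1.89 in DP, -0.33, -0.15 and -2.03 in CD4 and 0.71, -0.19 and -0.39 in CD8. It was above background on 2 DP, 2 CD4 and 3 CD8 arrays. It passed the filter on low values only through CD8, the fraction where it was highest, so its lower level in DP and CD4 was tied to that filter and is given as a description. COX7A2, the isoform of the same subunit found in most tissues, had a DP minus CD8 difference of 0.07 ± 0.42 (SE), and all 5 of its tested probes were higher in DP, by 0.07 to 0.20. COX8H, the heart isoform of subunit 8, was above background on none of the 9 arrays.

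COX7C, a small nuclear-encoded subunit, read 6.04, 5.90 and 6.26 in DP, 5.91, 6.77 and 5.91 in CD4 and 6.57, 7.30 and 5.96 in CD8. COX6B, on the face of complex IV turned to the intermembrane space, read 2.66, 2.72 and 2.87 in DP, 2.45, 2.77 and 2.93 in CD4 and 3.45, 3.19 and 2.70 in CD8. For both genes a single CD8 array, number 3, reached into the range of DP. Leaving out COX7A1, the chosen probes of the other tested complex IV genes all had a negative CD4 minus CD8 difference, from -0.55 to -0.26. All but that of COX7A2 had a negative DP minus CD8 difference. Over all tested probes the sign of DP minus CD8 was mixed in COX5B (2 higher, 1 lower), COX6A1 (3 higher, 2 lower) and COX6B (1 higher, 1 lower). The sign of CD4 minus CD8 was mixed in COX6A1 (2 higher, 3 lower) and COX7A2 (3 higher, 2 lower). COX5B and COX6A1 had DP minus CD8 differences of -0.10 ± 0.47 and -0.28 ± 0.58 (SE).

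Complex V makes ATP. ATP5O, the oligomycin sensitivity conferring protein that ties the catalytic head to the peripheral stalk, read 4.23, 4.06 and 4.11 in DP, 4.57, 4.76 and 4.53 in CD4 and 4.70, 5.21 and 4.40 in CD8. Every DP array lay below every CD4 array and every CD8 array, and the CD4 and CD8 arrays overlapped. The SD was 0.08 in DP and 0.12 in CD4, against 0.41 in CD8. DP minus CD4 was -0.49 ± 0.33 (SE) with an unadjusted p of 0.169, and DP minus CD8 was -0.64 ± 0.33 (SE) with an unadjusted p of 0.079 and a limma adjusted p of 0.848. The comparisons share the DP arrays.

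Of the 19 members with more than 1 tested probe, 5 had every probe lower in DP than in both other fractions: ATP5O, NDUFB8, COX6C, COX7C and ATP5I. For ATP5I the DP minus CD4 differences were only -0.10 and -0.05. Conversely, both tested probes of ATP5J2 were higher in DP than in each other fraction. The same share over genes outside the rule was not computed. All 10 tested probes of ATP5O were lower in DP than in CD4, from -0.71 to -0.12, and all 10 were lower in DP than in CD8, from -0.87 to -0.40. These probes measure one gene in the same RNA and are not replicates. The arrays did not overlap for 4 of the 10 probes against CD4 and for 3 against CD8. Within slide 2 the DP minus CD8 difference of ATP5O was -0.89 and within slide 3 it was -0.29, and DP minus CD4 was -0.70 and -0.44. It was negative under all 24 alternatives for both comparisons, between -0.58 and -0.40 against CD4 and between -0.82 and -0.37 against CD8. ATP5A1, the alpha subunit of the catalytic head, served as a contrast: of its 14 tested probes 11 were lower and 3 higher in DP than in CD8, from -0.61 to 0.51.

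**Figure D2:**
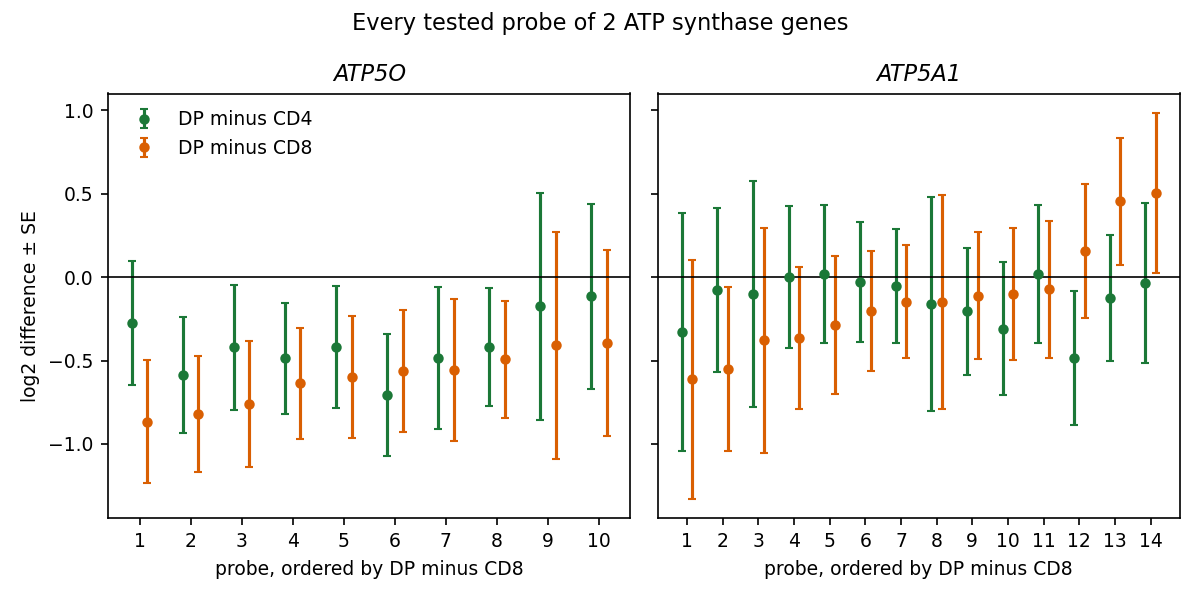
Log2 difference ± SE of every tested probe of ATP5O (left, 10 probes) and ATP5A1 (right, 14 probes), for DP minus CD4 in green and DP minus CD8 in orange, with probes ordered by the latter. All ATP5O points lie below 0, from -0.87 to -0.12, while ATP5A1 points fall on either side of 0.

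ATP5G1 and ATP5G3 encode the same mature subunit c, which forms the turning ring driven by protons. ATP5G1 read 4.83, 4.54 and 4.52 in DP, 3.71, 4.52 and 3.80 in CD4 and 4.57, 4.90 and 3.93 in CD8. The lowest DP array exceeded the highest CD4 array by less than 0.01, and DP minus CD4 was 0.62 ± 0.38 (SE), the largest positive difference of a member, with an unadjusted p of 0.123. ATP5G3 had a DP minus CD4 difference of 0.13 ± 0.43 (SE). ATP5G1 was the only member whose DP arrays all lay above CD4, at a background of 5.22%, and ATP5O the only one whose DP arrays all lay below, at a background of 4.89%. Against CD8, DP arrays lay wholly below for 3 genes (NDUFB6, COX7A1 and ATP5O), which is 11.5% of 26 at a background of 5.2%, and wholly above for none, at a background of 4.59%. Over the 25 genes above background on all arrays, which leaves out COX7A1, DP lay wholly below CD8 for 2 (8%).

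ATP5L, subunit g of the membrane part of complex V, read 0.93, 0.62 and 0.47 in DP, 0.91, 1.29 and 0.96 in CD4 and 1.24, 1.17 and 0.83 in CD8. ATP5I, subunit e, read 5.73, 5.10 and 4.65 in DP, 5.32, 5.45 and 5.00 in CD4 and 5.55, 5.66 and 4.97 in CD8. In both genes the fractions overlapped, and the DP minus CD8 differences were -0.40 ± 0.39 and -0.23 ± 0.37 (SE). ATP5E, the epsilon subunit of the central stalk, read 3.63, 3.99 and 1.87 in DP, 4.08, 2.32 and 2.24 in CD4 and 2.92, 4.24 and 3.27 in CD8, a spread within fractions wider than any difference between their means. ATP5J2, subunit f, had a DP minus CD8 difference of 0.11 ± 0.45 (SE). On their chosen probes all 8 tested genes of complex V were lower in CD4 than in CD8, from -0.59 to -0.03. Other probes went the other way, with 6 of 14 tested probes of ATP5A1, 1 of 2 of ATP5J2 and 1 of 10 of ATP5O higher in CD4. The sign changed in 7 of 24 alternatives for ATP5A1, in 6 for ATP5J2 and in 6 for ATP5L. NDUFAF3, an assembly factor of complex I and the one assembly factor that the symbols admitted, read 0.80, 1.67 and -0.13 in DP, 1.53, 1.16 and 0.80 in CD4 and 1.50, 1.88 and 1.08 in CD8, with overlap between all fractions.

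**Figure D3:**
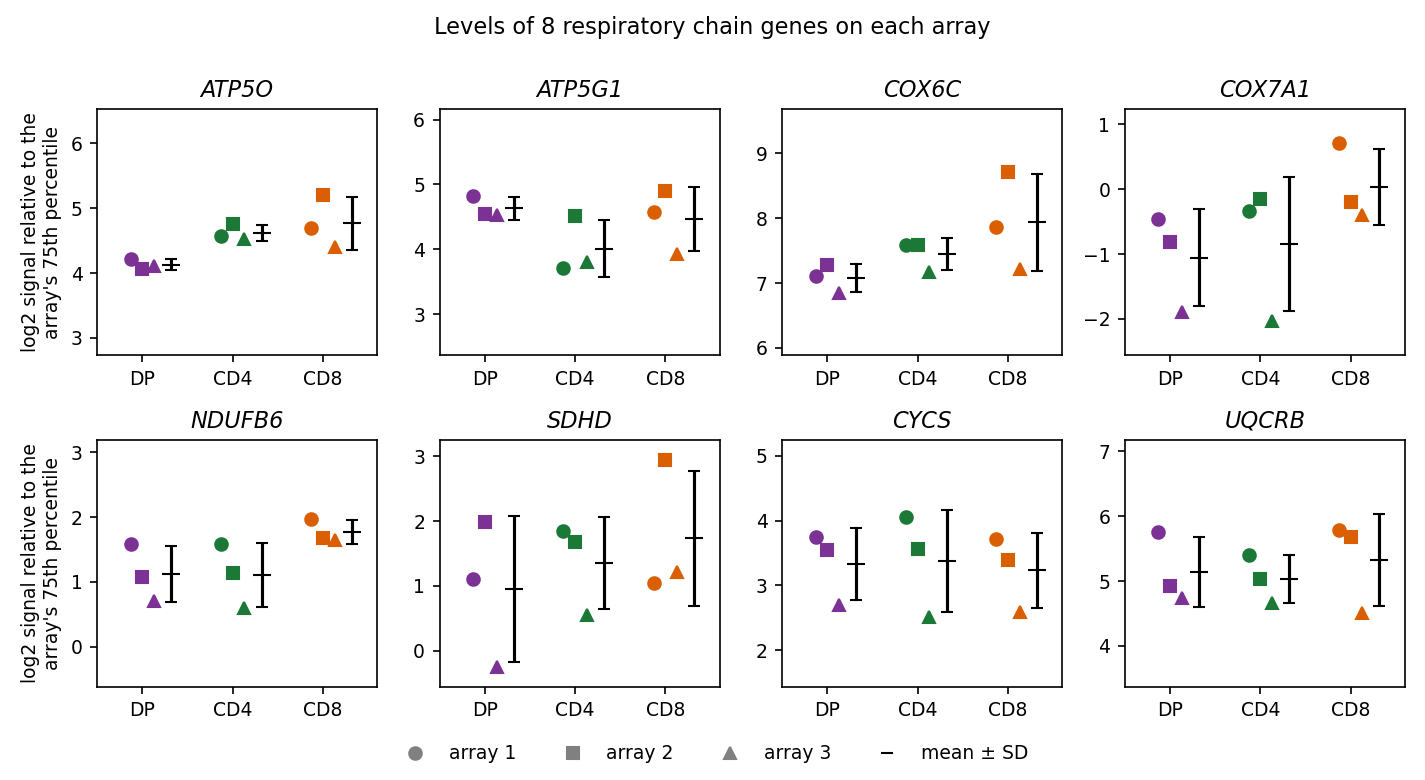
Level of 8 respiratory chain genes on each array (vertical axis, log2 signal relative to the array's 75th percentile; symbols for array number, fractions along the horizontal axis), with the mean ± SD of the 3 arrays beside the points. DP points of ATP5O cluster between 4.06 and 4.23 below all others, whereas CYCS shows level fractions and low values on array 3.

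By complex, the mean level over the tested genes of complex I was 1.94 ± 0.61 in DP, 2.01 ± 0.39 in CD4 and 2.30 ± 0.34 in CD8 (SD over arrays). NDUFA4, since assigned to complex IV, is counted there with complex I. Complex IV averaged 3.96 ± 0.40, 3.91 ± 0.44 and 4.41 ± 0.56, and complex V averaged 3.70 ± 0.36, 3.66 ± 0.25 and 3.89 ± 0.36. The complex IV means include COX7A1, which passed the filter only through CD8, so the higher CD8 mean there is tied in part to that filter. Complex II averaged 2.11 ± 0.51, 2.36 ± 0.53 and 2.37 ± 0.63, and complex III averaged 3.13 ± 0.55, 2.98 ± 0.27 and 3.36 ± 0.55. The CD8 mean was the highest in these complexes, level with CD4 in complex II, while CYCS was lowest in CD8, and the ranges over arrays overlapped in every complex.

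Most of these genes shared a low level on array 3 of each fraction. Array 3 was the lowest of its fraction for 21 of 26 genes in DP, 20 in CD4 and 23 in CD8, whereas it was the lowest for 41.3%, 37.4% and 44.4% of all tested probes. For 16 genes (61.5%) array 3 was the lowest in all 3 fractions at once, against 17.1% of all tested probes and 24.2% of the tested probes with a mean level above 2. The mean level of the 26 genes was 3.44, 3.33 and 2.64 on arrays 1, 2 and 3 of DP, and in the same order 3.42, 3.28 and 2.75 for CD4 and 3.56, 3.80 and 2.98 for CD8. The fraction means were 3.14, 3.15 and 3.45, with COX7A1 included, which passed the filter only through CD8.

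NDUFB8 of complex I differed on array 3 from the mean of the other arrays of its fraction by -2.63 in DP, -1.51 in CD4 and -0.27 in CD8. SDHD of complex II gave -1.79, -1.22 and -0.77, and ATP5E of complex V gave -1.95, -0.96 and -0.31. COX6A1, the isoform of subunit 6A found in most tissues, gave -1.72, -0.95 and -1.66. COX5B gave -0.95, -1.28 and -0.95, and CYCS gave -0.95, -1.30 and -0.96, nearly the same in each fraction. ATP5O, by contrast, gave -0.03, -0.14 and -0.56, and SDHB gave 0.09, -0.29 and -0.01. The size of this pattern changed with the scaling: array 3 was the lowest in all 3 fractions for 8 of 26 genes after quantile normalization (14.2% of all probes) and for 9 genes when the percentile was taken over probes above background on every array (10.7% of all probes). With normexp correction it was 10 genes (10.2% of all probes), and with the median of the tested probes subtracted it was 12 (14.2% of all probes).

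The 3 arrays numbered 3 lay on one slide, together with CD4 array 1. That array was above CD4 array 3 for 22 of the 26 genes, with a median difference of 0.58. Both were on slide 3, and the part of the slide in the low values was not tested. Whether a shared number stands for a shared animal or day is unknown here. The CD8 arrays carry other numbers in the authors' processed table, where the values of scanner array 3 stand under another number, so the statement on a shared number holds for the numbering of the scanner files. On arrays 1, 2 and 3 the 75th percentile was 39.7, 42.5 and 19.0 signal units in DP, 84.1, 15.2 and 28.8 for CD4 and 18.4, 24.3 and 29.7 for CD8, and its part was not tested. Without the arrays numbered 3, an alternative chosen after seeing the data, the medians of the 26 genes were 0.01 for DP against CD4, -0.40 for DP against CD8 and -0.37 for CD4 against CD8, and no gene was called.

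**Figure D4:**
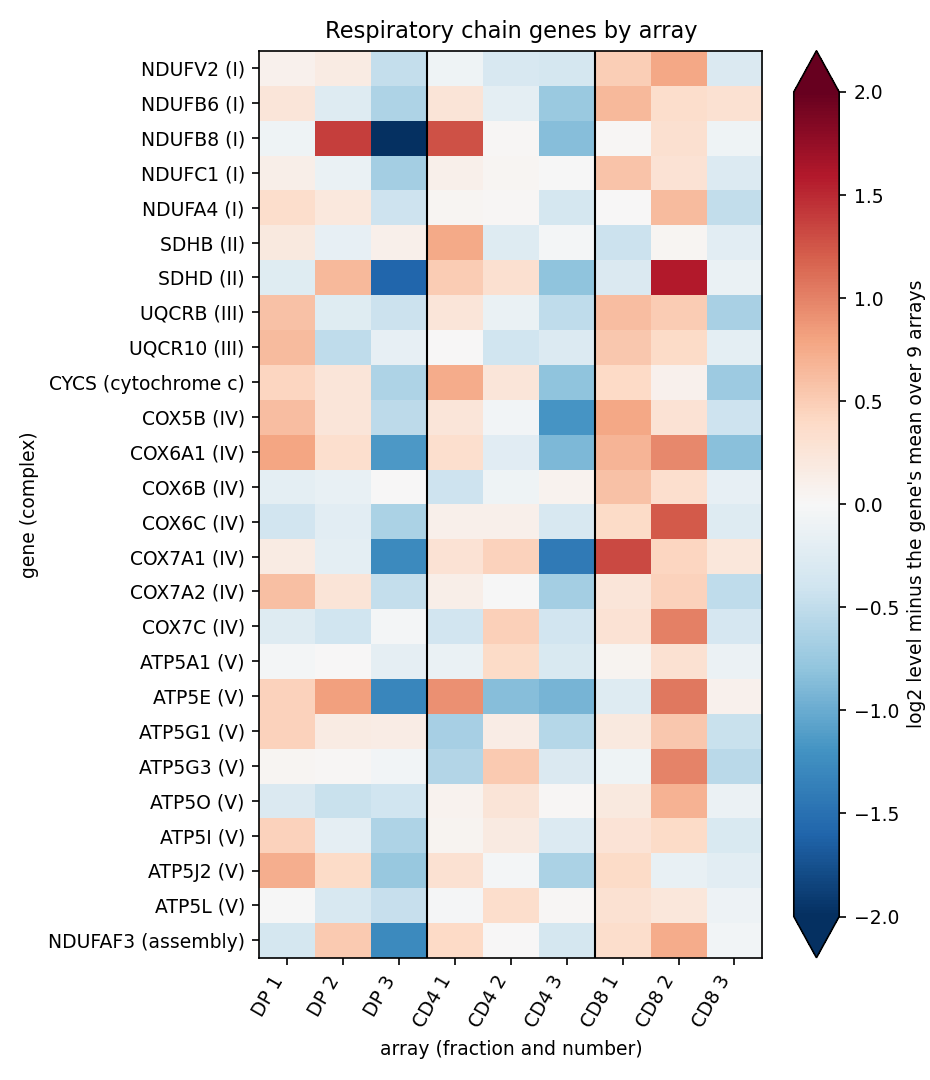
Level of each tested respiratory chain gene on each array minus the gene's own mean over the 9 arrays (colour, log2; red above and blue below the mean, with colours cut at -2 and 2), with genes in rows by complex and arrays in columns. The third column of each fraction is blue for most genes, since 21, 20 and 23 of 26 genes were at their lowest there. The CD8 columns 1 and 2 have the highest medians, 0.33 and 0.44, and the first columns of DP and CD4 also lie above 0, at 0.18 and 0.11.

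Other genes of mitochondrial energy metabolism gave no call either in limma's tests. None of the 13 subunits encoded in mitochondrial DNA was named, and they were not analysed here. Of 35 assembly factors outside the symbol rule 3 were named and 2 tested: PET100 and TACO1, which serve complex IV, had DP minus CD8 differences of -0.38 and -0.26. Of 23 genes of the citric acid cycle and pyruvate dehydrogenase 13 were named and 11 tested, with a median of -0.02 for DP minus CD4 and -0.19 for DP minus CD8. DLD, the shared lipoamide dehydrogenase subunit of these enzyme complexes, had the largest difference, -2.81 ± 1.29 (SE) against CD8, but a single array set it: DP array 2 read -2.45 and the other 8 arrays read 3.86 to 5.41. IDH3B, a subunit of isocitrate dehydrogenase, was at -0.88 ± 0.49 (SE) in DP minus CD8.

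Carriers and import genes filled the remaining lists. Of 9 nucleotide and phosphate carriers, uncoupling proteins and porins 7 were named and 6 tested. UCP2, an uncoupling protein of the inner membrane common in immune cells, read 5.98, 5.25 and 3.85 in DP, 3.13, 3.74 and 2.40 in CD4 and 5.10, 4.25 and 2.87 in CD8. All DP arrays of UCP2 lay above all CD4 arrays, and the difference of 1.94 ± 0.63 (SE) had a limma adjusted p of 0.437. SLC25A6, an exchanger of ADP and ATP, had a difference of -0.42 ± 0.35 (SE) for DP minus CD8. Of 16 genes of biogenesis and mitochondrial transcription 3 were named and 1 tested, TFAM, which packages mitochondrial DNA, at -0.90 ± 0.47 (SE) for DP minus CD4. Of 25 import genes and prohibitins 3 were named and tested: the chaperonins HSPE1 and HSPD1 had DP minus CD8 differences of -0.91 ± 0.38 and -0.32 ± 0.50 (SE), and TOMM7, a part of the outer membrane pore, had -0.19.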

How the data were processed

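Scanner files of 9 arrays were read, and a table of processed values was used as an alternative. Per the file headers, Agilent Feature Extraction 11.0.1.1 produced the scanner files. They hold the deposited intensity, on a linear scale, which the scanner software had corrected for background but not normalized between arrays. The authors' table is on a log2 scale with equal distributions in all columns (median 2.60) and runs in the direction of the scanner files; its software was not stated in the sources used here. Its CD8 columns 1, 2 and 3 follow scanner files 3, 1 and 2.

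Levels were log2 of the processed signal minus each array's 75th percentile, without control or flagged spots. Tested probes had to be well above background on every array of at least 1 fraction and to have at least 2 values per fraction (16024 of 43603). Accessions matched to the annotation of Sscrofa11.1 named 6730 probes (15.4%). One limma 3.58.1 fit over 9 arrays, without a block, was made in R 4.3.3 (lmFit, then eBayes with a trend). Tests were two-sided, and p-values were adjusted by the Benjamini-Hochberg method over all 16024 probes, with calls at 0.05. The number of arrays limits the precision. The fit was tested on simulated data with independent noise on every array, which held no variation shared by slide or array number. Figures were drawn with Python 3.11.15 and matplotlib 3.10.9.

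Genes given on every array were, per complex, up to 4 with the smallest p of the F test and the one with the brightest probe, and from each other list up to 2 by the same p. TOMM7, other genes given only by a difference, and the alternative without the arrays numbered 3 were chosen after values were seen. Members and lists were chosen with earlier results of these data known. Part of the marker results is not reported here. Other alternatives changed the scaling, background correction (normexp on the median foreground and background signals, offset 50), filter, variance trend, block, probe choice, samples and members.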

Additional observations from a re-analysis of the deposited data

How the results depend on the processing

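No respiratory chain gene was called by limma under any alternative: the count was 0 in all 94 alternatives over the 3 comparisons and the F test, and none of 1866 gene differences passed. The sign was kept under all alternatives run by 6 of 26 genes for DP against CD4, 11 for DP against CD8 and 13 for CD4 against CD8. Leaving out each array in turn gave medians of -0.20 to 0.21, -0.51 to -0.09 and -0.59 to -0.10 for these comparisons. With slide as a block the medians were -0.23, -0.42 and -0.07, and scan time was not run as a block. With the replicate block the medians stayed at -0.02, -0.30 and -0.31, 0 genes were called, and the smallest limma adjusted p was 0.394 for COX6C in DP against CD8. Same-numbered arrays deviated together unevenly: r over all tested probes ran from -0.07 to 0.65 and exceeded 0.1 in 7 of 9 pairs. Of the 9 arrays, 7 were nearest to their own number. What a number stands for is unknown here. The main fit did not pair the arrays, so its standard errors and p-values leave this shared variation in the spread. Counts over all probes, from which the background comes, moved by more than 1.5 times. For DP against CD4, DP against CD8 and CD4 against CD8 the main counts of 47, 50 and 70 became 144, 83 and 110 with the replicate block, 30, 21 and 50 with the CD8 numbers of the authors' table, 2, 2 and 38 with the slide block, 1, 7 and 6 with normexp, 109, 87 and 97 without a filter, and 12, 5 and 12 with probes above background on all arrays. Leaving out 1 array gave 2 to 55, 1 to 51 and 31 to 81, lowest without DP array 1 in both DP comparisons and without CD8 array 2 in the other. Members below background are limited by signal: COX8H and NDUFA4L2 have no measured level, and COX7A1 rests in part on values near background.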
